A study of Rattus norvegicus with 37 samples.

Results

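The core circadian clock of the liver was followed through 4 genes, the activators Arntl (ENSRNOG00000014448) and Clock (ENSRNOG00000002175) and the repressors Nr1d1 (ENSRNOG00000009329) and Nr1d2 (ENSRNOG00000046912), chosen by identifier from the 24613 rows of the count table with earlier results of these data known. All 4 passed the filter on low counts. Polyadenylated RNA was sequenced from the livers of 37 female Sprague Dawley rats, 8 to 9 weeks old at the start and each the only source of its library, in 8 groups of 4 or 5. In the SCI + In-Cage Activity set (15 rats), uninjured rats lived in standard cages (No SCI + Standard, n = 5), and rats with a contusion of 25 g-cm at the upper thoracic spinal cord lived in tiny cages (CONT SCI + Tiny, n = 5) or large cages (CONT SCI + Large, n = 5). In the SCI + Exercise set (22 rats) every rat lived in a tiny cage: uninjured (No SCI, n = 4), contused at the same force without exercise (CONT SCI, n = 4), with complete transection of the cord (TX SCI, n = 4), contused with swimming (CONT SCI + SWIM, n = 5) and contused with shallow water walking (CONT SCI + SWW, n = 5).

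The labels place tissue collection at 8.5 weeks after injury for TX SCI and at 11.5 weeks for the contused groups, while the study's methods give a later time for the exercised rats. The methods place collection of the uninjured rats at the equivalent of 11.5 weeks. Food was freely available, lights followed a light and dark cycle, and rats shared cages in pairs. The hour of collection and the cage mates of each rat are not given in the sources used here, so their part in the results was not tested. In the In-Cage set injury and cage type cannot be told apart. Library totals ran from 20066978 to 36761953 counts, the lowest of the Exercise set (26190364) lying above the highest of the In-Cage set (25130252). No pair of libraries within a group matched within sampling noise. The liver label was not checked against cell markers here, since the count table carries identifiers without symbols.

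ARNTL (also called BMAL1) and CLOCK are transcription factors that bind DNA as a pair at E-boxes and drive genes of the clock, among them Nr1d1 and Nr1d2. The Nr1d genes encode the nuclear receptors REV-ERB alpha and REV-ERB beta, which sit on response elements of the Arntl promoter and repress it, closing a loop. In liver the transcripts of the activator Arntl and of the REV-ERB receptors are known to peak at opposed phases of the day, and the loop times genes of lipid, bile acid and glucose metabolism.

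The promoters are shown because the loop described above acts through short elements in such regions. A match to the letters of an element is a description, not a site. Sequences are from RefSeq (GRCr8, matched by symbol, with Arntl listed as Bmal1), whereas the counts rest on Ensembl genes of the Rn6 build. Each line holds the 250 bases before an annotated start, 5′ to 3′ on the gene's strand. Capitals mark AAAGTAGGTNA in Arntl, the E-box CACGTG in Nr1d1 (the second of its annotated starts) and AGGTCA, the half-site of the element bound by REV-ERB and ROR receptors, in Nr1d2.
Arntl, chr1:176766078-176766327, plus strand: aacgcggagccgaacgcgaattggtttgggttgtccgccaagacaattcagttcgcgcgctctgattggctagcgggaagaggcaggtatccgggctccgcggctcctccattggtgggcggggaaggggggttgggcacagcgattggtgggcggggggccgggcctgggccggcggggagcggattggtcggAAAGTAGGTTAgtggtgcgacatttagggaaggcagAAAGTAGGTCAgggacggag
Nr1d1, chr10:84229455-84229704, minus strand: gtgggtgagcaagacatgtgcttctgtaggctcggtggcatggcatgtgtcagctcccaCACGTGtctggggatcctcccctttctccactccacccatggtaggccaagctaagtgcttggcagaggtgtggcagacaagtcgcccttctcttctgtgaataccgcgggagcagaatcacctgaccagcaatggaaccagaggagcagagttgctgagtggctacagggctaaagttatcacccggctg
Nr1d2, chr15:9954784-9955033, plus strand: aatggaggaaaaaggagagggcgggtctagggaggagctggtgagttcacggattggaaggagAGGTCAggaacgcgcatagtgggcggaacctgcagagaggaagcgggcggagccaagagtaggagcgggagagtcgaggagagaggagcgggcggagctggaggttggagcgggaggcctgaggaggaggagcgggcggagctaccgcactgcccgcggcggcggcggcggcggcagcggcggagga

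Both marked stretches of the Arntl promoter lay close to the start, AAAGTAGGTTA beginning 56 bases and AAAGTAGGTCA 20 bases before it. The 11-letter pattern AAAGTAGGTNA, chosen after the Arntl promoter had been read, was found on either strand in 12 of 33469 promoters (0.0359%, windows from 250 bases before to 50 after the start), and Arntl was the 1 promoter that held it 2 times. The second stretch contains TAGGTCA, present in 2.63% of promoters, and within it AGGTCA, present in 16.2%. The CACGTG of Nr1d1 began 191 bases before the start, a motif in 6.42% of promoters. The AGGTCA of Nr1d2 began 187 bases before the start. No match to these motifs or to the D-box TTATGTAA (0.893% of promoters) was found in the windows of the other Nr1d1 start and of both Clock starts, which says only that these letters are not there.

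**Figure D1:**
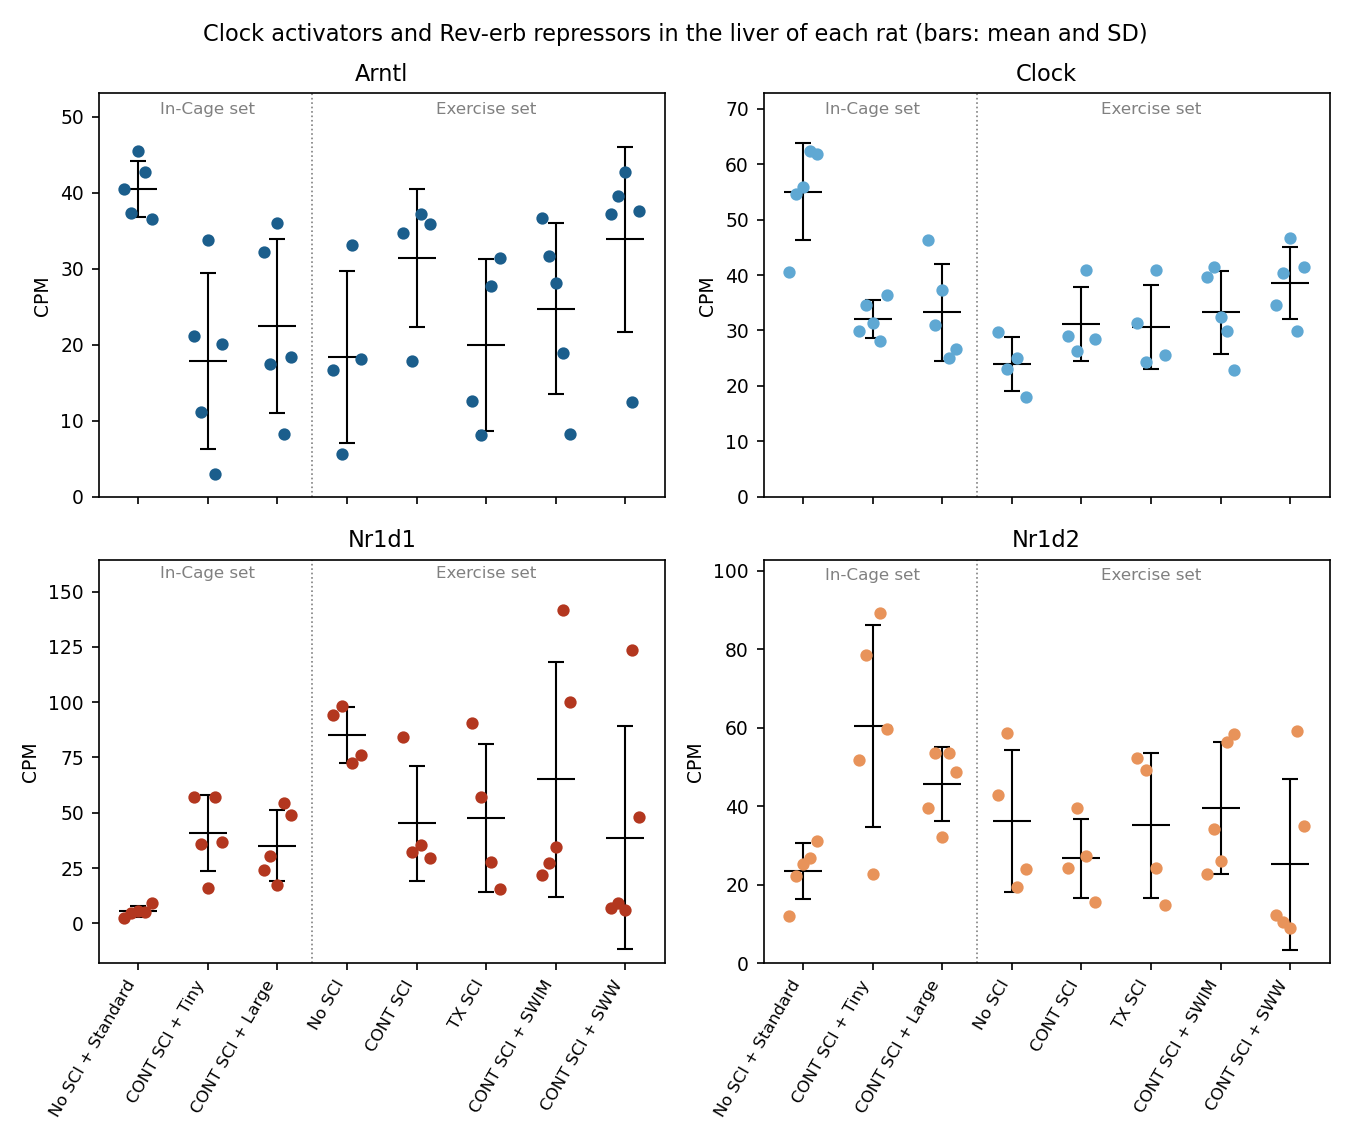
CPM of Arntl, Clock, Nr1d1 and Nr1d2 in each of the 37 livers, by group, with the In-Cage set left of the dotted line. Points are rats, horizontal bars group means and whiskers the SD, which runs below 0 for Nr1d1 in CONT SCI + SWW. Nr1d1 was at 2.38 to 9.04 CPM in No SCI + Standard and at 72.6 to 98.2 CPM in No SCI.

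Levels are given as CPM, counts scaled to a library size of 1000000 with trimmed mean of M-values (TMM) factors over the 37 rats, and are compared between rats, not between genes, since they are not corrected for transcript length. Nr1d1 had the widest range of the 4 genes, 59.6-fold from 2.38 to 141.9 CPM (42 to 5604 counts), followed by Arntl with 15.3-fold (2.97 to 45.4 CPM, 68 to 1420 counts), Nr1d2 with 9.86-fold (9.05 to 89.2 CPM) and Clock with 3.46-fold (18.05 to 62.4 CPM). With group means removed, the SD among rats of 1 group was 1.00 log2 units for Nr1d1, 0.81 for Arntl and 0.72 for Nr1d2, places 43, 95 and 144 from the top among 9099 genes with a mean of at least 100 counts, whose median SD was 0.24. Clock, at 0.28, was place 2947. The mean Arntl level was highest in No SCI + Standard and lowest in CONT SCI + Tiny, the mean Clock level highest in No SCI + Standard and lowest in No SCI, the mean Nr1d1 level highest in No SCI and lowest in No SCI + Standard, and the mean Nr1d2 level highest in CONT SCI + Tiny and lowest in No SCI + Standard. Along these orders the ranges of neighbouring groups overlapped for every gene, except that all No SCI + Standard rats lay below all CONT SCI + Large rats, the next group up, for Nr1d1.

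The uninjured rats of the In-Cage set had high activators and low repressors, although the median Nr1d2 level was lower in CONT SCI + SWW (12.4 CPM, against 25.3 CPM in No SCI + Standard). Arntl was at 40.5, 37.3, 45.4, 42.7 and 36.6 CPM in No SCI + Standard (mean 40.5 ± 3.70, SD, n = 5). Clock was at 40.6, 54.5, 55.8, 62.4 and 61.8 CPM in the same rats (55.0 ± 8.79, SD, n = 5). Arntl was closely grouped, while Clock was more spread, with 1 rat lower than the rest. Nr1d1 was at 2.38, 4.65, 5.76, 5.21 and 9.04 CPM (5.41 ± 2.40, SD, n = 5). Nr1d2 was at 12.0, 22.2, 25.3, 26.7 and 31.2 CPM (23.5 ± 7.21, SD, n = 5). The rat lowest for Nr1d1 was also the lowest for Nr1d2, and the rat highest for Nr1d1 was also the highest for Nr1d2.

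The question of contusion with restricted housing is addressed by CONT SCI + Tiny against No SCI + Standard, in which the activators lay lower and the repressors higher. Nr1d1 lies on the strand opposite to Thra, a thyroid hormone receptor gene whose end overlaps its own (RefSeq, GRCr8). Reads were counted by strand from stranded libraries, per the study's methods. Nr1d1 was at 57.2, 35.8, 16.1, 57.1 and 36.9 CPM in the contused rats (40.6 ± 17.2, SD, n = 5), every value above the highest uninjured rat. The log2 fold change was 2.88 ± 0.40 (SE), a 7.34-fold higher level (edgeR quasi-likelihood test, Benjamini-Hochberg adjusted p = 0.0159), and was the third largest in size of 11859 genes tested. Nr1d2 was at 51.8, 78.5, 22.8, 89.2 and 59.7 CPM (60.4 ± 25.7, SD, n = 5), with 1 contused rat inside the uninjured range. Its log2 fold change was 1.33 ± 0.35 (SE, edgeR, Benjamini-Hochberg adjusted p = 0.0364).

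Clock fell in the same comparison, at 29.9, 34.5, 31.4, 28.04 and 36.4 CPM (32.1 ± 3.40, SD, n = 5) with no overlap with the uninjured rats. Its log2 fold change was −0.81 ± 0.13 (SE, edgeR, Benjamini-Hochberg adjusted p = 0.0159). Arntl was at 21.2, 11.1, 33.7, 2.97 and 20.1 CPM (17.8 ± 11.6, SD, n = 5), also without overlap, yet its log2 fold change of −1.21 ± 0.47 (SE) did not pass the test (edgeR, Benjamini-Hochberg adjusted p = 0.105). The contused rats spread over 11.3-fold for Arntl, with the lowest rat at 68 counts and the highest at 33.7 CPM against a lowest uninjured value of 36.6 CPM. In whole liver, fewer cells of a type and less RNA per cell cannot be told apart. Over all genes tested, 12.5% were called at an adjusted p under 0.05, against 3 of these 4 genes, and 7.77% did not overlap between the groups. The 5 uninjured rats are those of the comparison known when the genes were chosen, so these calls are not independent of that choice. The calls of Clock and Nr1d1 were lost without No SCI + Standard replicate 4 (edgeR, Benjamini-Hochberg adjusted p = 0.0512 for each). Their log2 fold changes were then −0.76 and 2.86, and 15 of 11971 genes were called, against 1479 with all rats. The call of Nr1d2 held in 3 of 10 fits with 1 rat left out, those without CONT SCI + Tiny replicate 3, CONT SCI + Tiny replicate 4 or No SCI + Standard replicate 1, with adjusted p from 0.0227 to 0.0759, and was lost with no filter on low counts (adjusted p = 0.0644). Arntl passed without CONT SCI + Tiny replicate 4 (adjusted p = 0.0308), the rat at 2.97 CPM.

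Contused rats in large cages lay on the same side of the uninjured rats for all 4 genes. This comparison was known when the genes were chosen and is given as a description. Nr1d1 was at 24.02, 30.2, 17.2, 54.4 and 49.0 CPM (34.98 ± 16.1, SD, n = 5; log2 fold change 2.67 ± 0.37, SE). Nr1d2 was at 39.6, 53.6, 32.2, 53.7 and 48.8 CPM (45.6 ± 9.43, SD, n = 5; log2 fold change 0.93 ± 0.22, SE). Both repressors were above every uninjured rat in every contused rat. Arntl was at 32.1, 17.4, 35.99, 8.21 and 18.4 CPM (22.4 ± 11.4, SD, n = 5; log2 fold change −0.87 ± 0.30, SE), each below every uninjured rat. Clock was at 46.2, 30.96, 37.3, 25.1 and 26.6 CPM (33.2 ± 8.68, SD, n = 5; log2 fold change −0.75 ± 0.18, SE), with 1 contused rat inside the uninjured range. Of 11852 genes tested, 0.0337% were called at an adjusted p under 0.05 and 4.13% did not overlap between the groups.

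The cage comparison, CONT SCI + Large against CONT SCI + Tiny, gave differences smaller than their SE, except for Nr1d2. The log2 fold changes were 0.34 ± 0.57 (SE) for Arntl, 0.061 ± 0.16 for Clock, −0.21 ± 0.38 for Nr1d1 and −0.40 ± 0.29 for Nr1d2. For each gene a difference of the size of its SE, and larger ones, could have gone unseen. The ranges overlapped for all 4 genes, as they did for all but 0.503% of 11920 genes, and none of the 4 was called (edgeR, Benjamini-Hochberg adjusted p = 1.00 for each). Of all genes tested edgeR called 0.00%, with 346 at an unadjusted p under 0.05, and DESeq2 called 3.

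In the Exercise set the uninjured rats had the highest group mean of Nr1d1, although single exercised rats lay above them. Nr1d1 was at 94.1, 98.2, 72.6 and 76.1 CPM in No SCI (85.3 ± 12.8, SD, n = 4). In CONT SCI it was at 84.1, 32.4, 35.4 and 29.4 CPM (45.3 ± 25.99, SD, n = 4). Of the contused rats, 3 lay close together below all uninjured rats, and 1 lay among the uninjured rats. The log2 fold change was −0.91 ± 0.30 (SE), which did not pass the test (edgeR, Benjamini-Hochberg adjusted p = 0.873), and without that contused rat, CONT SCI replicate 1, it was −1.39 ± 0.15 (SE, adjusted p = 0.0360).

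The other genes of the loop overlapped between CONT SCI and No SCI. Arntl was at 16.7, 5.59, 33.1 and 18.1 CPM in No SCI (18.4 ± 11.3, SD, n = 4) and at 34.7, 17.9, 37.2 and 35.9 CPM in CONT SCI (31.4 ± 9.08, SD, n = 4). Clock was at 29.7, 23.1, 25.1 and 18.05 CPM in No SCI (24 ± 4.84, SD, n = 4) and at 29.1, 26.2, 41.0 and 28.4 CPM in CONT SCI (31.2 ± 6.65, SD, n = 4). Nr1d2 was at 43.0, 58.8, 19.4 and 23.9 CPM in No SCI (36.3 ± 18.1, SD, n = 4) and at 24.4, 39.6, 27.3 and 15.5 CPM in CONT SCI (26.7 ± 9.98, SD, n = 4). The signs were the reverse of those in the In-Cage set, with log2 fold changes of 0.78 ± 0.44 (SE) for Arntl, 0.38 ± 0.18 for Clock and −0.44 ± 0.36 for Nr1d2 (edgeR, Benjamini-Hochberg adjusted p = 0.998 for each). Of all genes tested, 0.00801% were called and 2.60% did not overlap.

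The contusion effect was then compared between the sets, CONT SCI against No SCI minus CONT SCI + Tiny against No SCI + Standard. Such a test asks whether the effects differ, not whether the direction reverses, and in the Exercise set alone none of the 4 genes was called. The difference was −3.81 ± 0.55 log2 units (SE) for Nr1d1 (edgeR interaction term, Benjamini-Hochberg adjusted p = 0.0139) and 1.17 ± 0.22 for Clock (adjusted p = 0.0435). For Arntl it was 1.96 ± 0.71 (adjusted p = 0.121) and for Nr1d2 −1.79 ± 0.55 (adjusted p = 0.0941), neither passing. Of 12571 genes, 0.199% were called, and 2 of these 4. The No SCI + Standard rats belong to the comparison known when the genes were chosen, so these calls are not independent of that choice. The Nr1d1 difference was not called without CONT SCI replicate 3 (adjusted p = 0.0754) or CONT SCI replicate 4 (adjusted p = 0.0518). The Clock difference was called in 7 of 18 fits with 1 rat left out (without CONT SCI + Tiny replicate 2, CONT SCI replicate 2, No SCI replicates 1 or 2, or No SCI + Standard replicates 1, 2 or 3), its adjusted p ranging from 0.0108 to 0.107. The uninjured rats of the sets differed in cage type and in sequencing depth, so injury, cage and set cannot be told apart in this difference.

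Between the sets, the uninjured rats differed in 3 of the 4 genes. No SCI against No SCI + Standard gave a log2 fold change of 3.92 ± 0.29 (SE) for Nr1d1, a 15.2-fold higher level in the Exercise set (edgeR, Benjamini-Hochberg adjusted p = 6.3e-06). Arntl was lower by 2.26-fold (log2 fold change −1.18 ± 0.36, SE, adjusted p = 0.0161) and Clock by 2.37-fold (−1.24 ± 0.17, SE, adjusted p = 0.000201), all 3 genes without overlap. Nr1d2 was at 0.58 ± 0.32 (SE, adjusted p = 0.152). These calls stand against 51.4% of 12174 genes called and 39.4% without overlap, so a call in this comparison is common. They also rest on the No SCI + Standard rats, whose values were known in part when the genes were chosen, and are not independent of that choice. Nr1d1 ranked 51st by size of the log2 fold change. The injured rats of the same label, CONT SCI against CONT SCI + Tiny, gave 0.10 ± 0.44 (SE, adjusted p = 0.864) for Nr1d1, −0.086 ± 0.14 (adjusted p = 0.625) for Clock, 0.77 ± 0.58 (adjusted p = 0.311) for Arntl and −1.22 ± 0.41 (adjusted p = 0.0380) for Nr1d2, with 45.1% of 12199 genes called. The Nr1d2 call there was lost in 7 of 9 fits with 1 rat left out, held without CONT SCI + Tiny replicate 3 or CONT SCI replicate 2, and was lost with no filter (adjusted p = 0.0767).

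Transected rats were split among themselves. Nr1d1 was at 90.5, 57.2, 27.5 and 15.4 CPM in TX SCI (47.7 ± 33.5, SD, n = 4). Nr1d2 was at 52.3, 49.1, 24.2 and 14.8 CPM (35.1 ± 18.5, SD, n = 4) and Arntl at 12.5, 8.15, 27.7 and 31.4 CPM (20.0 ± 11.3, SD, n = 4). The pair of rats high in both repressors was the pair low in Arntl. Clock was at 31.3, 24.4, 41.0 and 25.6 CPM (30.6 ± 7.57, SD, n = 4) and did not share that division. Against No SCI the log2 fold change was −0.82 ± 0.44 (SE) for Nr1d1 (edgeR, Benjamini-Hochberg adjusted p = 0.50), 0.36 ± 0.20 for Clock (adjusted p = 0.520), 0.12 ± 0.51 for Arntl (adjusted p = 0.961) and −0.029 ± 0.44 for Nr1d2 (adjusted p = 0.991). Against CONT SCI it was −0.68 ± 0.39 (SE) for Arntl (adjusted p = 0.484), −0.037 ± 0.20 for Clock (adjusted p = 0.953), 0.082 ± 0.51 for Nr1d1 (adjusted p = 0.963) and 0.40 ± 0.40 for Nr1d2 (adjusted p = 0.709). No call was made among the 4 genes, with 0.0638% and 0.0321% of genes called. TX SCI livers were collected earlier than those of No SCI and CONT SCI, so transection and time of collection cannot be told apart.

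The exercised groups were the most divided of all for Nr1d1. It was at 22.0, 27.4, 34.5, 141.9 and 99.9 CPM in CONT SCI + SWIM (65.1 ± 53.2, SD, n = 5). In CONT SCI + SWW it was at 7.12, 9.18, 6.19, 123.5 and 47.9 CPM (38.8 ± 50.5, SD, n = 5), a 20.0-fold spread within 1 group. Of these rats, 2 lay within the range of the uninjured rats in standard cages and 1 just above it, whereas 1 lay above every uninjured rat of its own set. Nr1d2 followed the same division, at 22.8, 34.2, 25.9, 56.4 and 58.5 CPM in CONT SCI + SWIM (39.6 ± 16.9, SD, n = 5) and at 12.4, 10.4, 9.05, 59.3 and 34.9 CPM in CONT SCI + SWW (25.2 ± 21.8, SD, n = 5).

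Arntl ran the other way in most of these rats. It was at 36.6, 31.6, 28.1, 18.96 and 8.32 CPM in CONT SCI + SWIM (24.7 ± 11.2, SD, n = 5), where the pair of rats with high Nr1d1 had the lowest values. In CONT SCI + SWW it was at 37.1, 39.6, 42.7, 12.5 and 37.6 CPM (33.9 ± 12.2, SD, n = 5), where the rat at 123.5 CPM for Nr1d1 was the only low one. Replicate 5 of that group was an exception. Its Nr1d1 (47.9 CPM) and Nr1d2 (34.9 CPM) were above the group means, and so was its Arntl. Clock was at 39.6, 41.5, 32.3, 29.9 and 22.9 CPM in CONT SCI + SWIM (33.3 ± 7.54, SD, n = 5) and at 34.6, 40.4, 46.6, 29.8 and 41.5 CPM in CONT SCI + SWW (38.6 ± 6.50, SD, n = 5), lowest in the same rats as Arntl.

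Exercise was compared with CONT SCI, and the modes with each other, without a call for any of the 4 genes. Swimming gave log2 fold changes of −0.35 ± 0.38 (SE) for Arntl, 0.089 ± 0.19 for Clock, 0.52 ± 0.58 for Nr1d1 and 0.56 ± 0.34 for Nr1d2 (edgeR, Benjamini-Hochberg adjusted p from 0.513 to 0.887; 0.00800% of 12502 genes called). Shallow water walking gave 0.12 ± 0.34 (SE) for Arntl, 0.32 ± 0.16 for Clock, −0.20 ± 0.97 for Nr1d1 and −0.063 ± 0.62 for Nr1d2 (adjusted p from 0.266 to 0.967; 0.759% of 12642 genes called). Swimming against shallow water walking gave −0.46 ± 0.39 (SE) for Arntl, −0.22 ± 0.17 for Clock, 0.73 ± 0.90 for Nr1d1 and 0.63 ± 0.54 for Nr1d2 (adjusted p from 0.792 to 0.847). Of 12525 genes in the last comparison edgeR called 0.00%, with 680 at an unadjusted p under 0.05, and DESeq2 called 14. The SE of the Nr1d1 difference was 0.58 log2 units or more in each, so a difference of that size, and larger ones, could have gone unseen.

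**Figure D2:**
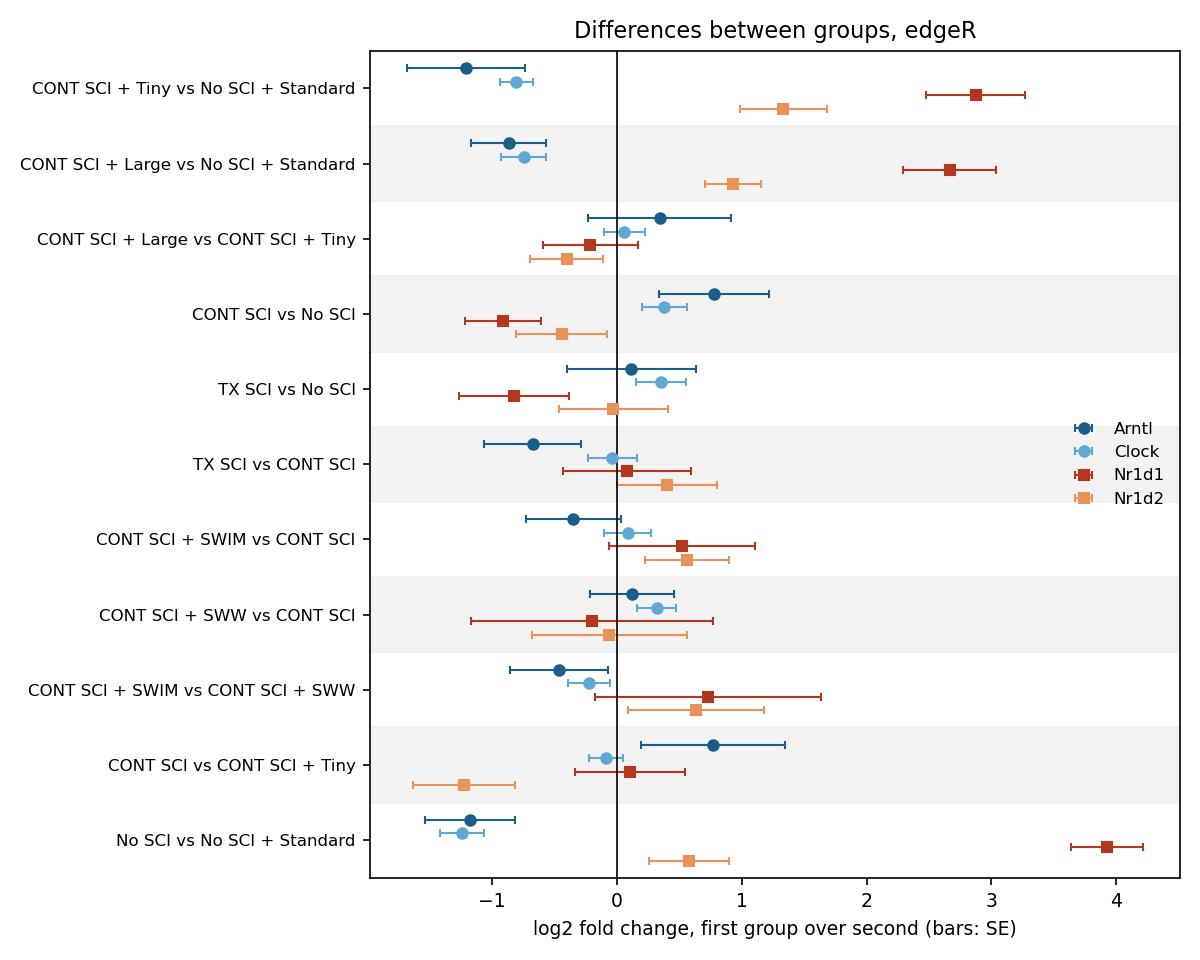
Log2 fold change of each gene in the 11 comparisons (first group over second, whiskers the SE, edgeR). Circles are the activators and squares the repressors, which lie on opposite sides of 0 in 9 of 11 comparisons, with Nr1d1 reaching 3.92 for No SCI against No SCI + Standard.

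Activators and repressors were then set against each other across all comparisons. Both activators went one way and both repressors the other in 9 of 11 comparisons. The exceptions were CONT SCI + SWIM against CONT SCI, where Clock was at 0.089, and CONT SCI against CONT SCI + Tiny, where Clock was at −0.086 and Nr1d1 at 0.10. Arntl and Nr1d1 had opposite signs in 10 of 11. Many of these comparisons share groups and many of the values were small against their SE, so the count is a description and not so many separate observations.

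The counts of a repressor per count of an activator give the balance in 1 number per rat, a ratio that no library scaling can change. It is read between rats only, since gene lengths differ. Nr1d1 counts per Arntl count ran from 0.0588 to 0.247 in No SCI + Standard, from 0.479 to 19.2 in CONT SCI + Tiny, from 0.479 to 6.63 in CONT SCI + Large and from 2.19 to 17.6 in No SCI. Thus every rat of these other groups lay above every uninjured rat in a standard cage. This follows from Nr1d1 and Arntl each lying apart in those comparisons, and is no separate result. In CONT SCI + SWW the ratio was 0.192, 0.232, 0.145, 9.87 and 1.28, with 3 rats inside the No SCI + Standard range. It ran from 0.819 to 2.42 in CONT SCI, from 0.491 to 7.21 in TX SCI and from 0.602 to 12.0 in CONT SCI + SWIM. Nr1d2 counts per Clock count ran from 0.295 to 0.505 in No SCI + Standard and from 0.726 to 3.18 in CONT SCI + Tiny, again apart. The No SCI + Standard rats belong to the comparison known when the genes were chosen, so neither ratio is independent of that choice.

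**Figure D3:**
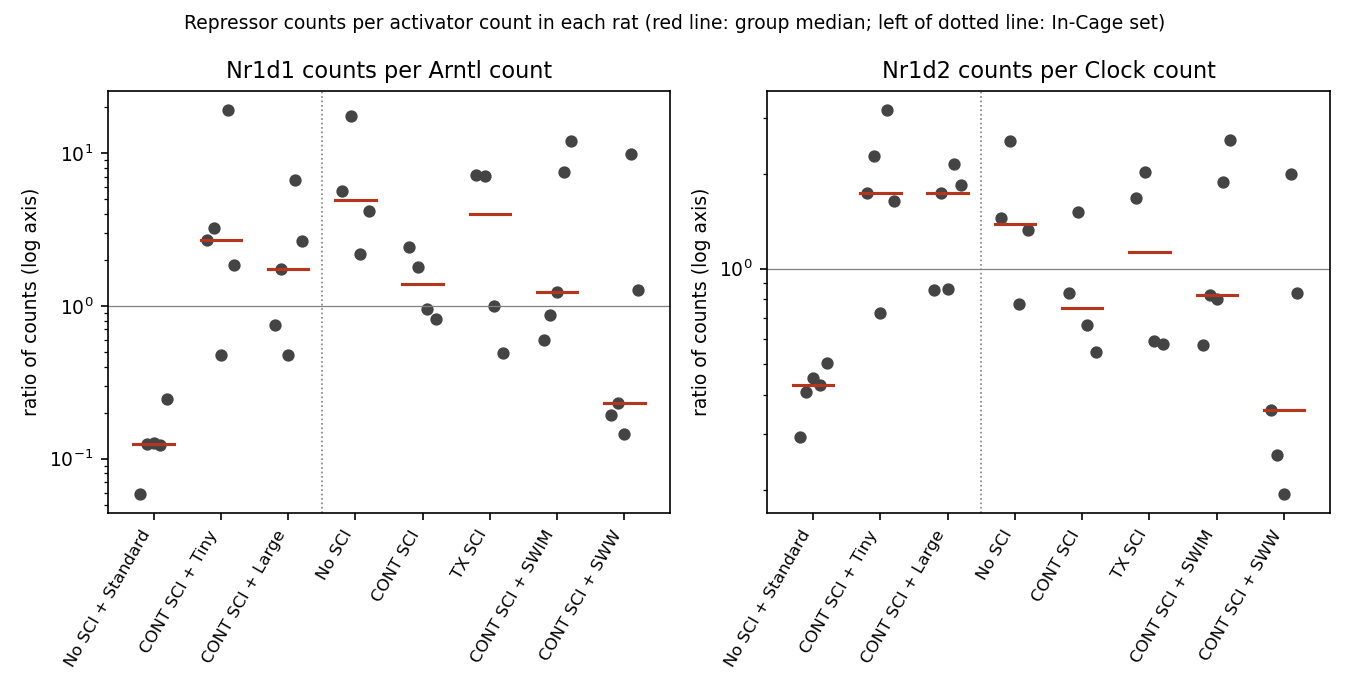
Nr1d1 counts per Arntl count (left) and Nr1d2 counts per Clock count (right) in each rat, on log axes, with red lines at the group medians. The median of the first ratio was 0.125 in No SCI + Standard and 4.91 in No SCI, and 3 rats of CONT SCI + SWW lay at 0.145 to 0.232.

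Whether the genes also moved against each other among rats of the same group was asked with each rat's deviation from its group's mean on the log2(CPM + 1) scale, which removes every difference between groups. In the Exercise set (22 rats) Arntl ran against both repressors. Pearson's r was −0.81 for Arntl and Nr1d2 (permutation test within groups, two-sided, p = 2e-05, Benjamini-Hochberg adjusted over 6 pairs p = 0.00012), with Spearman's rho at −0.78 (permutation p = 4e-05, adjusted p = 0.00015). For Arntl and Nr1d1, r was −0.63 (permutation p = 0.00179, adjusted p = 0.00358) and rho −0.69 (permutation p = 0.00072, adjusted p = 0.00144). The deviations of Arntl and Nr1d2 had opposite signs in 19 of 22 rats, and those of Arntl and Nr1d1 in 18 of 22. In the In-Cage set these counts were 11 of 15 and 9 of 15.

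Within each role the genes moved together in that set. For the repressors Nr1d1 and Nr1d2, r was 0.86 (permutation p = 7e-05, adjusted p = 0.00021) and rho 0.84 (permutation p = 5e-05, adjusted p = 0.00015). For the activators Arntl and Clock, r was 0.58 (permutation p = 0.0149, adjusted p = 0.0223) and rho 0.59 (permutation p = 0.0138, adjusted p = 0.0207). Clock showed no relation past the threshold with Nr1d1 (r = −0.38, permutation p = 0.0999, adjusted p = 0.12; rho = −0.31, permutation p = 0.193, adjusted p = 0.231) or with Nr1d2 (r = −0.30, permutation p = 0.212, adjusted p = 0.212; rho = −0.23, permutation p = 0.353, adjusted p = 0.353). Without the 2 rats farthest from the median of the first gene named, r was −0.82 for Arntl and Nr1d2, −0.68 for Arntl and Nr1d1, 0.79 for Nr1d1 and Nr1d2 and 0.54 for Arntl and Clock, the last no longer past the threshold (permutation test, adjusted p = 0.0599).

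The 15 rats of the In-Cage set gave the same sign of r for 5 of the 6 pairs, Clock and Nr1d2 being the exception, with larger p-values. Pearson's r of Nr1d1 and Nr1d2 was 0.82 (permutation p = 0.00125, adjusted p = 0.0075) and rho 0.69 (permutation p = 0.0088, adjusted p = 0.0264). Without the 2 outermost rats r was 0.65 (permutation p = 0.0367, adjusted p = 0.11), no longer past the threshold. Leaving out these rats also narrows the range of Nr1d1, so how far the relation rests on them cannot be told. For Arntl and Nr1d2, r was −0.69 (permutation p = 0.0211, adjusted p = 0.0634) and rho −0.85 (permutation p = 0.00065, adjusted p = 0.0039), and r was −0.52 without the 2 outermost rats (adjusted p = 0.11). For Arntl and Nr1d1, r was −0.63 (permutation p = 0.0324, adjusted p = 0.0649) and rho −0.56 (permutation p = 0.0538, adjusted p = 0.108), and r was −0.54 without them (adjusted p = 0.131). For Arntl and Clock, r was 0.48 (permutation p = 0.0469, adjusted p = 0.0703) and rho 0.48 (permutation p = 0.0954, adjusted p = 0.143), and r was 0.58 without them (adjusted p = 0.131). Clock again had no relation past the threshold with Nr1d1 (r = −0.22, permutation p = 0.469, adjusted p = 0.563; rho = −0.30, permutation p = 0.335, adjusted p = 0.402) or Nr1d2 (r = 0.091, permutation p = 0.703, adjusted p = 0.703; rho = −0.086, permutation p = 0.758, adjusted p = 0.758). Rats that shared a cage, or that were collected at the same hour, are not independent, and neither is recorded in the sources used here.

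**Figure D4:**
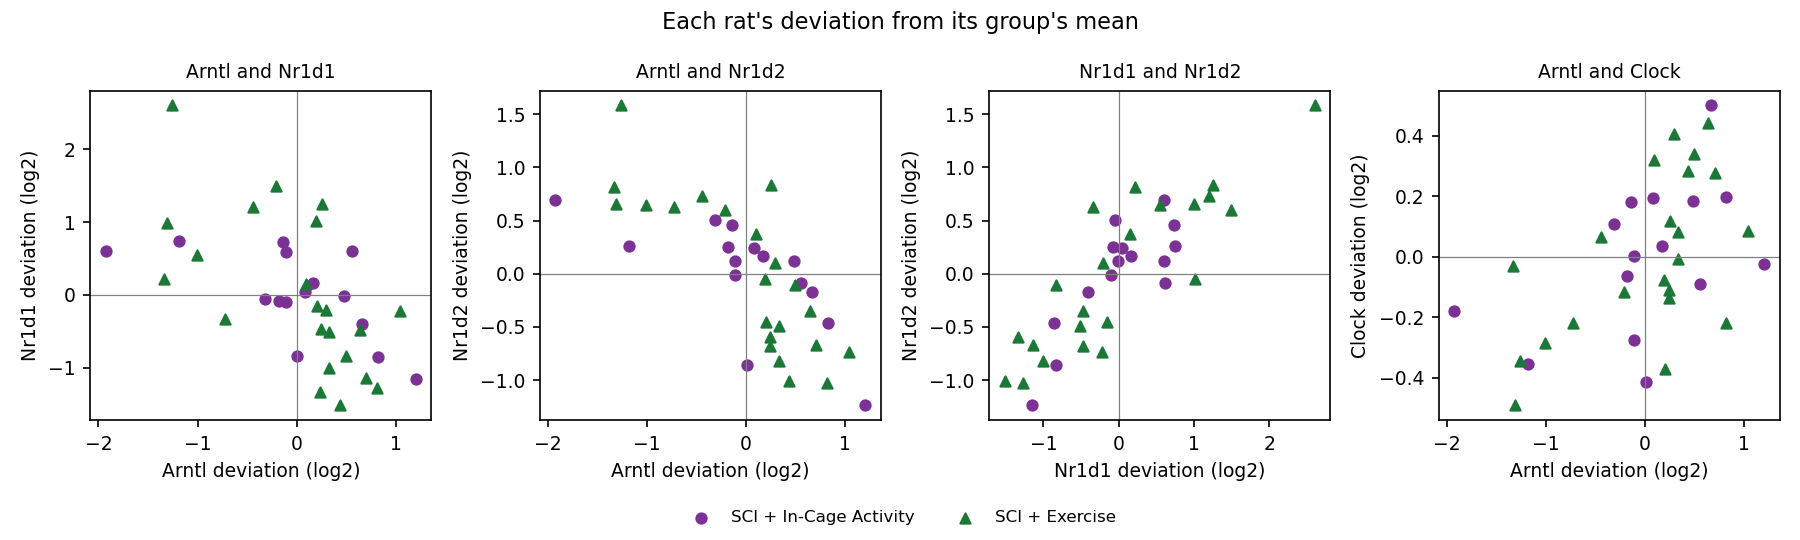
Deviation of each rat from its group's mean, log2(CPM + 1), for 4 pairs of genes (circles, 15 rats of the In-Cage set; triangles, 22 rats of the Exercise set). Points fall from upper left to lower right for Arntl with Nr1d1 (r = −0.63 in each set) and with Nr1d2 (r = −0.69 and −0.81), and rise for Nr1d1 with Nr1d2 (r = 0.82 and 0.86).

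Read in single rats, the same values showed the opposition mainly for Arntl and Nr1d2. In 7 of 8 groups the rat lowest for Arntl was the rat highest for Nr1d2, TX SCI being the exception, and in 4 of 8 groups it was the rat highest for Nr1d1. In CONT SCI + Tiny, for instance, replicate 4 had Arntl at 2.97 CPM and Nr1d2 at 89.2 CPM, while replicate 3 had Arntl at 33.7 CPM and Nr1d2 at 22.8 CPM. In No SCI, replicate 2 had Arntl at 5.59 CPM and Nr1d2 at 58.8 CPM, against 33.1 CPM and 19.4 CPM in replicate 3. The rats highest for Nr1d1 and for Nr1d2 were the same animal in 5 of 8 groups. For the other activator, the rat lowest for Clock was the rat highest for Nr1d2 in 5 of 8 groups and for Nr1d1 in 2 of 8.

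Over all 37 rats, likeness was described by Pearson's r of the same deviations among 9099 genes, with no test. The gene most like Nr1d1 was its paralog Nr1d2 (r = 0.85). Nr1d2 itself was most like ENSRNOG00000014066 (r = 0.94), with Nr1d1 in place 2, and least like ENSRNOG00000000503 (r = −0.90). Arntl was most like ENSRNOG00000013408 (r = 0.90) and least like ENSRNOG00000018413 (r = −0.91), with Nr1d2 the 9th and Nr1d1 the 31st from the negative end (r = −0.75 and −0.60) and Clock the 72nd from the positive end (r = 0.54). Symbols for these other identifiers are not in the files used here. Past ±0.7, Arntl had 19 genes on the positive and 13 on the negative side, Nr1d2 had 15 and 16, Clock 12 and 8, and Nr1d1 4 and 6. Library totals of the sets did not overlap, and whether libraries were prepared in batches is not given in the sources used here.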

How the data were processed

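Liver RNA of 37 rats was analysed from the deposited table of raw counts. Per the labels and the study's methods, the authors aligned single-end reads with STAR to Rn6 after FastQC 0.10.1 and counted reads per Ensembl gene with HTSeq, leaving out mitochondrial genes. The kit was stranded and reads were counted with the matching reverse setting. Nothing was pooled. Counts were tested with edgeR 4.0.16 (quasi-likelihood, robust, TMM, filterByExpr set to 10 counts, total 15) between the groups of each comparison, with Benjamini-Hochberg adjustment over all genes tested and a threshold of 0.05. The SE is the log2 fold change divided by the square root of F. DESeq2 1.42.0 was an alternative. Correlations used 100000 permutations within groups. The edgeR p-values set the difference between groups against the spread between rats, counting error included. Those of the correlations come from the permutations. The rule for named genes was the 4 genes of the loop and their most and least alike genes. Genes and lists were chosen with earlier results of these data known. Tests were checked on simulated data. Lists of other clock genes and cell markers were not run, since 0 identifiers could be matched to symbols of the 47357 genes in the RefSeq table.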

Additional observations from a re-analysis of the deposited data

Results flagged for a closer look

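A total of 3 values lay far from the other rats of their group, out of 32 gene and group pairs examined, where chance gives about 1 in 20. In CONT SCI, Arntl was lowest in replicate 2 at 17.9 CPM and Nr1d1 highest in replicate 1 at 84.1 CPM, so different rats stood apart for the activator and the repressor. In CONT SCI + SWW, Arntl was lowest in replicate 4 at 12.5 CPM, the rat with the highest Nr1d1. The contusion effect differed between the sets by a test of the difference for Clock (Exercise set minus In-Cage set, 1.17 log2 units) and for Nr1d1 (−3.81 log2 units), with the limits given in the report.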

How the results depend on the processing

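Correlations were repeated with RLE, with log2(CPM + 0.1) and without the 2 outermost rats, and 33 of 36 kept their direction and their side of the threshold. Fold changes were refitted with DESeq2, size factors by RLE, no filter, the replicate block or the whole set fitted at once. Of 192 tested fold changes, 186 kept their direction and their side of the threshold. So did 14 of 16 differences of the contusion effect, for which the whole set was not fitted at once. The log2 fold changes of CONT SCI + Large against No SCI + Standard, described without a test, moved by less than the SD between rats in all 20 such fits and all 40 with 1 rat left out (−1.10 to −0.66 for Arntl, −0.90 to −0.65 for Clock, 2.45 to 2.96 for Nr1d1, 0.79 to 1.09 for Nr1d2). Without the filter, Nr1d2 was no longer called in CONT SCI + Tiny against No SCI + Standard (log2 fold change 1.33) or CONT SCI against CONT SCI + Tiny (−1.21). Same-numbered rats share only a number: their deviations correlated from −0.55 to 0.50 over 48 pairs, and in 15 of 96 cases a rat was best matched by the rat of its own number. With the replicate block these were 1.28 and −1.13, also no longer called, Nr1d1 turned to −0.094 in TX SCI against CONT SCI and −0.021 in CONT SCI + SWIM against CONT SCI, and the difference of the contusion effect for Clock was 1.16 and no longer called, with no other call changed. DESeq2 called that difference for Nr1d2 (−1.79). Without the 2 outermost rats, r in the In-Cage set was −0.19 for Clock and Nr1d2 and 0.65 for Nr1d1 and Nr1d2, and in the Exercise set 0.54 for Arntl and Clock. The causes were not tested.

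Leaving out 1 rat at a time changed a sign or a call for the following tested log2 fold changes, given as lowest to highest. CONT SCI + Tiny against No SCI + Standard: Arntl −1.56 to −0.93, Clock −0.90 to −0.75, Nr1d1 2.69 to 3.15, Nr1d2 1.15 to 1.55. CONT SCI + Large against CONT SCI + Tiny: Clock −0.095 to 0.15. CONT SCI against No SCI: Nr1d1 −1.39 to −0.75. TX SCI against No SCI: Arntl −0.19 to 0.57, Nr1d2 −0.30 to 0.30. TX SCI against CONT SCI: Clock −0.21 to 0.13, Nr1d1 −0.41 to 0.55. CONT SCI + SWW against CONT SCI: Arntl −0.074 to 0.33, Nr1d1 −1.35 to 0.27, Nr1d2 −0.67 to 0.19. CONT SCI against CONT SCI + Tiny: Nr1d1 −0.36 to 0.26, Nr1d2 −1.47 to −1.04. The difference of the contusion effect ran from 1.01 to 1.28 for Clock and from −4.28 to −3.63 for Nr1d1. Pearson's r ran from −0.75 to −0.51 for Arntl and Nr1d1, −0.79 to −0.58 for Arntl and Nr1d2 and −0.22 to 0.20 for Clock and Nr1d2 in the In-Cage set, and from 0.47 to 0.68 for Arntl and Clock and −0.48 to −0.26 for Clock and Nr1d1 in the Exercise set.

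Counts over all genes moved more. DESeq2 called 2523 against 1479 genes in CONT SCI + Tiny against No SCI + Standard, 1375 against 4 with large cages, 63 against 1 in CONT SCI against No SCI, 291 against 8 and 363 against 4 for TX SCI, 254 against 1 for swimming, 910 against 96 for shallow water walking and 773 against 25 for the difference between the sets. With the whole set fitted at once the first counts were 899 and 935, those of TX SCI 268 and 135, those of exercise 10 and 20, and that of CONT SCI 0. The replicate block gave 12 for the difference between the sets, 1 with large cages, 13 for CONT SCI, 4 and 1 for TX SCI and 7 for swimming, and no filter gave 116 with large cages and 3 for CONT SCI. With 1 rat left out, 15 to 2998 genes were called in the tiny cages, 0 to 2020 in the large cages and 1 to 2010 for the difference between the sets. The clock gene list was not run.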
